A study of Mus musculus with 12 samples.

Results

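The genes described here are 37 genes of glycolysis and of the hypoxia response, chosen by name. The glycolytic chain has 24 of them, from glucose uptake to lactate export. The other 13 are HIF-1 alpha, 2 of its prolyl hydroxylases and 10 further targets of HIF-1 or of low oxygen. All 37 names were found among the 24279 rows of the expression table. All 37 also passed the filter on low values, a level of at least 1 TPM in at least 3 libraries, which 12594 genes passed. TPM (transcripts per 1000000) is a level per transcript length on a fixed total per library, so levels can be set side by side between genes.

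The RNA came from peritoneal macrophages, phagocytes of the abdominal cavity, that were WT or Pim1-/-. Pim1 is a serine/threonine kinase. Macrophages of each genotype, kept in RPMI with fetal bovine serum, received PBS or 20 µg/mL oxLDL (oxidized low-density lipoprotein) for 8 h, which makes 4 groups of 3 libraries. The labels give no strain, age or sex and do not name the part of Pim1 that is missing in Pim1-/-. Whether the libraries of a group stand for different animals or cultures is not stated, so the p-values measure the spread between these samples, which may be technical.

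Glycolysis turns glucose into pyruvate in the cytosol, and lactate dehydrogenase with a lactate exporter lets it run without oxygen. HIF-1 is a transcription factor whose alpha subunit is hydroxylated by prolyl hydroxylases and degraded when oxygen is present. When stabilized it raises transcription of most glycolytic genes and of genes for mitophagy, for blood vessel growth and for keeping pyruvate out of mitochondria. In macrophages, inflammatory stimuli are known to raise glycolysis too, and oxLDL is the lipoprotein cargo of foam cells in atherosclerosis.

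Pim1 itself read 56.0 to 365 TPM in the 6 WT libraries and 10.2 to 47.8 TPM in the 6 Pim1-/- libraries, with no overlap. The nearest libraries were WT oxLDL 2, at 56.0 TPM, and Pim1-/- oxLDL 1, at 47.8 TPM, the similar pair given below. The macrophage markers Lyz2, Cd68, Csf1r and Adgre1 were at 63.9 TPM or more in all 12 libraries, whereas Timd4, a marker of resident peritoneal macrophages, was at 1.36 TPM or less. Of the 10 macrophage markers 9 passed the filter on low values, Gata6 and Icam2 among them and Timd4 not. The summed T and NK cell markers were 492 TPM in WT PBS 3, with Gzma and Ncr1 at 0, 3.47 to 6.42 TPM in the other 5 PBS libraries and 11.8 to 28.0 TPM in the 6 oxLDL libraries. Summed B cell markers ranged from 3.78 to 37.8 TPM, with Ms4a1 at 0 in WT PBS 3, the highest, and WT PBS 3 had 12867 genes at 0 against 8204 to 9964. Summed markers of mesothelium and fibroblasts ranged from 292 to 1928 TPM, mostly collagens, and those of neutrophils from 9.41 to 145 TPM, mostly S100a8, with S100a9 and Elane at 0 in 10 libraries each. Some markers moved with oxLDL. Lck, of T cells, was called higher in Pim1-/- on both scales (2.85 unscaled and 3.44 scaled, as log2 changes) and in WT after scaling (2.05). The other tested T and NK cell markers, Cd3d and Nkg7, changed by -0.59 and -1.01 in WT after scaling. In Pim1-/- they changed by 0.09 and 0.95 after scaling, and none of these was called. Pax5, of B cells, was called higher after scaling in WT (1.24, adjusted p = 0.0320) and Pim1-/- (adjusted p = 0.0261), and Camp, of neutrophils, in Pim1-/- on both scales (1.31 and 1.64). Of the B cell markers tested, 3 changed above 0 and 2 below 0 in WT after scaling. Of the other neutrophil markers tested, Ngp changed by -0.24 and S100a8 by 2.17 in Pim1-/- after scaling, with neither called. The fibroblast marker Dcn was called higher in WT after scaling (1.21), and the mesothelial Upk3b (-1.42) and the macrophage Csf1r (-1.77) lower in WT unscaled. Fcgr1, another macrophage marker, was called higher in both genotypes on both scales (2.16 to 3.16). For Pim1-/- against WT in PBS no marker was called. Unscaled, 5 of 9 tested macrophage markers and 4 of 6 of mesothelium and fibroblasts had an unadjusted p under 0.05 (limma). Of all 12594 tested genes 3546 did, and the median log2 difference of all tested genes was -0.41. Gata6, Adgre1, Mertk and Csf1r were lower (-2.32 to -1.44) and Cd68 higher (1.10). Col1a1, Col1a2 and Col3a1 were higher (1.35 to 1.59) and Upk3b lower (-1.57). The part of these cells in the results below was not tested. WT oxLDL 2 and Pim1-/- oxLDL 1 had a Spearman correlation of 0.977 across genes, the highest between any pair of libraries and above that of either with its own group.

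Rows of ribosomal RNA took 11.7% to 32.7% of a library's TPM, and the level of the typical gene moved with treatment. The median change of all tested genes with oxLDL was -0.70 in WT and -0.50 in Pim1-/- on the log2(TPM + 1) scale, and the median difference of Pim1-/- from WT was -0.41 in PBS and -0.16 in oxLDL. Calls of the glycolysis and hypoxia genes described here are therefore given on unscaled TPM, the main scale, and after median-of-ratios scaling. In that scaling each library is divided by its median ratio to the geometric mean library over the 9996 genes above 0 in all libraries. A change or fold given below without a scale is unscaled. The factors were 1.53 to 1.81 in WT PBS, 0.667 to 1.06 in WT oxLDL, 0.912 to 1.47 in Pim1-/- PBS and 0.665 to 0.772 in Pim1-/- oxLDL. After scaling, those medians were 0.12, 0.01, 0.09 and 0.01. A gene is called when its Benjamini-Hochberg adjusted p over all tested genes, from limma, is under 0.05.

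In WT macrophages in PBS Pkm, Gapdh, Aldoa, Ldha and Pgam1 had the highest mean levels of the 37 transcripts. Pkm, the pyruvate kinase, averaged 2265 ± 247 TPM (SD, n = 3). Gapdh, Ldha, Aldoa and Pgam1 averaged 1286, 1238, 1208 and 1157 TPM, and their 3-library ranges overlapped one another. Hk3 was the most abundant hexokinase at 764 ± 153 TPM, Pfkl and Pfkp the main phosphofructokinases at 112 ± 33.1 and 76.1 ± 17.0 TPM, and Slc2a1 the main glucose transporter at 195 ± 3.42 TPM. Hypoxia targets spanned 1.75 TPM for Adm to 294 TPM for Bnip3l. The 24 glycolytic genes together took 0.799% to 1.54% of all TPM in a library, with 0.801% to 1.25% in WT PBS, 0.957% to 1.54% in WT oxLDL, 0.799% to 1.44% in Pim1-/- PBS and 1.07% to 1.15% in Pim1-/- oxLDL, so the 4 groups overlapped.

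**Figure D1:**
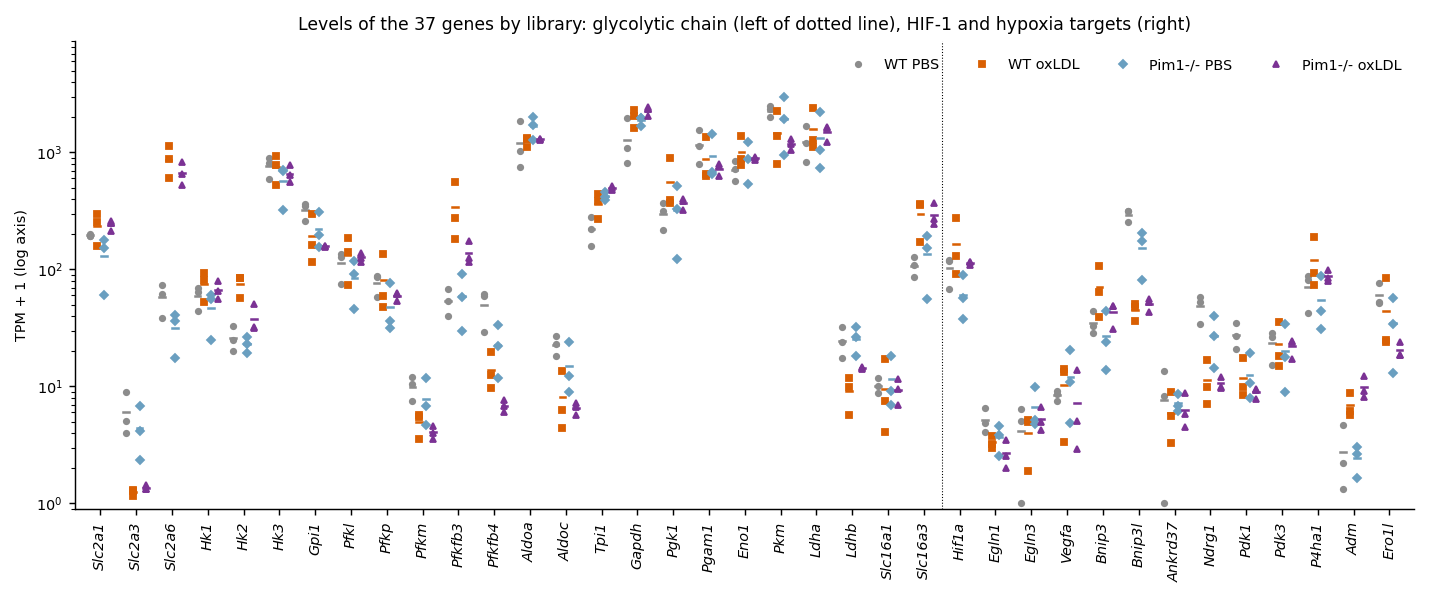
Levels of the 37 genes in each of the 12 libraries, as TPM + 1 on a log axis, with the glycolytic chain in pathway order left of the dotted line and HIF-1 and hypoxia targets right of it. Points are libraries and bars are means of 3. Slc2a6 and Pfkfb3 stand higher in the oxLDL groups and Slc2a3 and Bnip3l lower, while Pkm, Aldoa and Ldha overlap between PBS and oxLDL within each genotype.

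In WT macrophages oxLDL raised a few steps of the chain rather than all of it. On unscaled TPM 5 of the 37 genes rose: the transporter Slc2a6, the hexokinase Hk2, the regulator Pfkfb3, the lactate exporter Slc16a3 and the peptide hormone gene Adm. In the same contrast 5.83% of all tested genes were called higher. The 7 that fell were Slc2a3, Pfkfb4, Aldoc, Ldhb, Bnip3l, Ndrg1 and Pdk1, while 27.0% of all tested genes were called lower. The median change was 0.16 over the 24 glycolytic genes and 0.03 over the 13 HIF-1 and hypoxia genes, against -0.70 over all tested genes. In these bulk samples, fewer cells of a type and less RNA per cell cannot be told apart.

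Relative to the typical gene more of the chain was higher in WT. After median scaling 17 genes were called higher, with 13.1% of all tested genes, and 3 were called lower, with 7.47%. The 17 were the 5 above and Slc2a1, Hk1, Pfkl, Pfkp, Tpi1, Gapdh, Pgk1, Eno1, Ldha, Hif1a, Bnip3 and P4ha1, and the 3 were Slc2a3, Bnip3l and Ndrg1. The scaled median change was 1.18 over the glycolytic genes and 0.88 over the hypoxia genes, against 0.12 over all tested genes. The 5 rises and 3 falls called on both scales are Slc2a6, Hk2, Pfkfb3, Slc16a3 and Adm, and Slc2a3, Bnip3l and Ndrg1. The unscaled number of rises dropped from 5 to 3 without WT PBS 1, WT PBS 2 or WT oxLDL 2, and the number of falls from 7 to 4 without WT oxLDL 1. Without WT PBS 3, the library with T and NK cell markers, they were 5 and 7 unscaled, and 15 and 4 after scaling. Without the similar pair WT oxLDL 2 and Pim1-/- oxLDL 1 there were 3 rises and 4 falls unscaled and 11 rises scaled.

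In Pim1-/- macrophages the called genes were fewer and lay within those called in WT. On unscaled TPM Slc2a6 and Adm rose, 2 of 37 with 4.45% of all tested genes called higher. Slc2a3, Pfkfb4 and Bnip3l fell, 3 of 37 with 7.8% of all tested genes called lower. After scaling 12 genes were called higher, with 7.68% of all tested genes, and Slc2a3 alone lower, with 4.03%. The 12 were Slc2a1, Slc2a6, Hk1, Hk2, Pfkl, Pfkp, Pfkfb3, Slc16a3, Hif1a, Bnip3, P4ha1 and Adm. Each was also called higher in WT, so 100% of the Pim1-/- list and 70.6% of the WT list were shared, and Tpi1, Gapdh, Pgk1, Eno1 and Ldha were called in WT alone. That does not show a difference in response: no gene of the 37 passed the test of the difference, given further below. Median changes were 0.26 for glycolysis and -0.28 for hypoxia genes unscaled, and 0.92 and 0.25 scaled, against -0.50 and 0.01 for all tested genes. Of the unscaled rises 1 was left without Pim1-/- oxLDL 3 and 4 were called without Pim1-/- PBS 3. Of the unscaled falls none was left without Pim1-/- PBS 2 or without any of the 3 Pim1-/- oxLDL libraries, and 1 was left without Pim1-/- PBS 3. The scaled rises numbered 6 without Pim1-/- oxLDL 3 and 7 without Pim1-/- PBS 1, Pim1-/- oxLDL 1 or Pim1-/- oxLDL 2. Without the similar pair 2 rises and 0 falls were left unscaled, and 6 rises and 0 falls scaled.

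**Figure D2:**
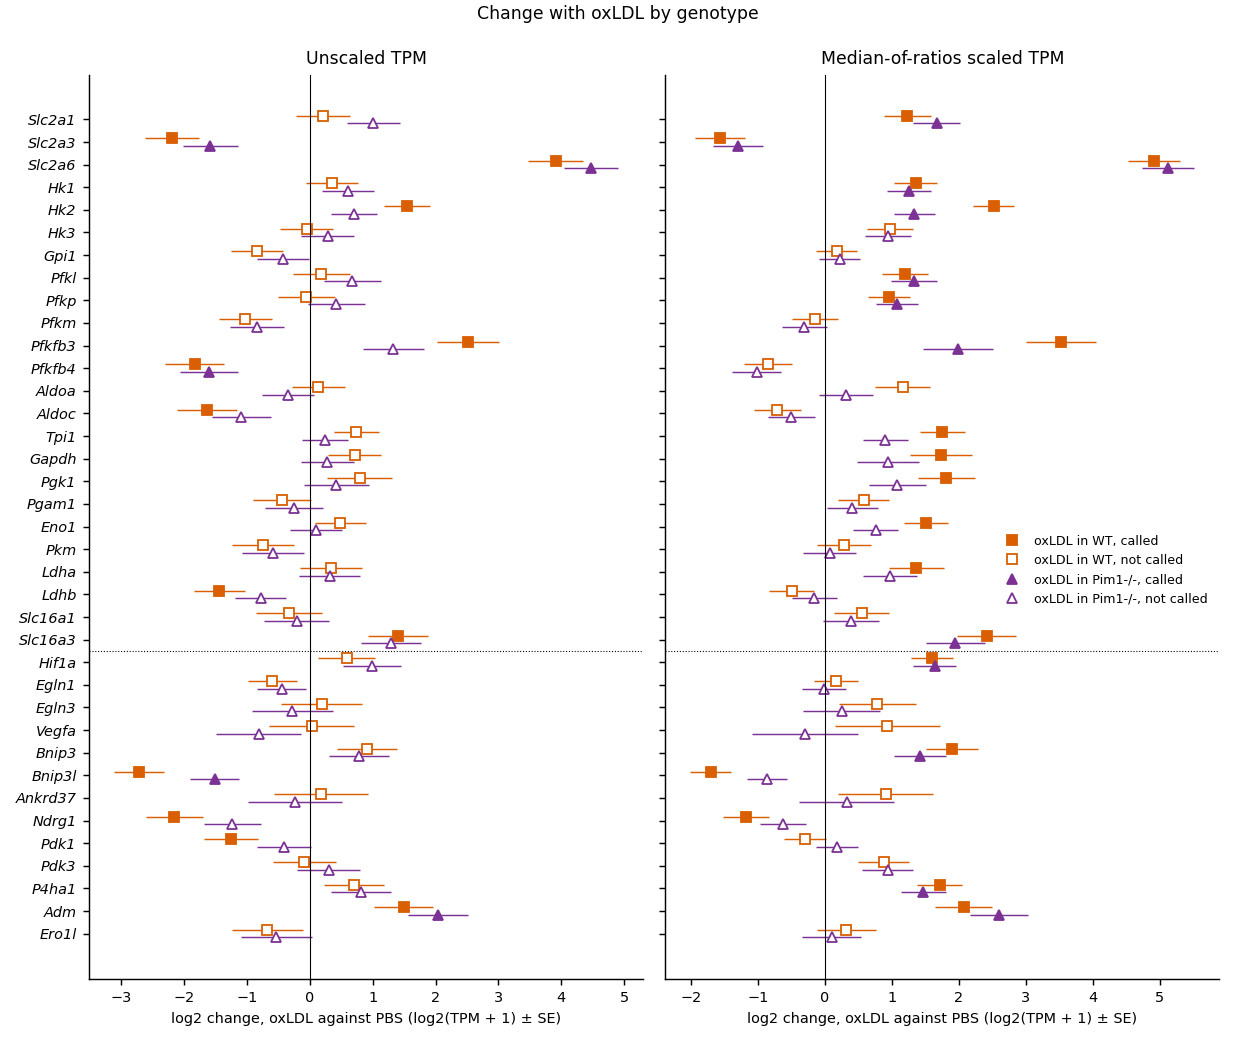
Change with oxLDL on the log2(TPM + 1) scale with the standard error of the limma model, for WT (squares) and Pim1-/- (triangles), unscaled on the left and median scaled on the right. Filled symbols are called; unscaled, 12 genes are filled for WT and 5 for Pim1-/-, and scaled, 20 and 13, with Pkm crossing from below to above 0.

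The promoters of the 5 genes that rose in WT are printed because these genes moved together, with that of Pfkfb4 for contrast, the paralogue of Pfkfb3 that fell. Each runs from 250 bases before to 50 bases after the transcription start of the RefSeq annotation of GRCm38.p6, 5′ to 3′ on the strand of the gene. Capitals mark ACGTG and GCGTG, the core letters of the hypoxia response element, and their reverse complements CACGT and CACGC. The window of Slc2a6 is chr2:27027949-27028248 on the minus strand, that of Hk2 chr6:82774405-82774704 on the minus strand and that of Pfkfb3 chr2:11553880-11554179 on the minus strand, the first of 2 listed starts. That of Slc16a3 is chr11:120948817-120949116, that of Adm chr7:110627407-110627706 and that of Pfkfb4 chr9:108991652-108991951, all on the plus strand.
Slc2a6: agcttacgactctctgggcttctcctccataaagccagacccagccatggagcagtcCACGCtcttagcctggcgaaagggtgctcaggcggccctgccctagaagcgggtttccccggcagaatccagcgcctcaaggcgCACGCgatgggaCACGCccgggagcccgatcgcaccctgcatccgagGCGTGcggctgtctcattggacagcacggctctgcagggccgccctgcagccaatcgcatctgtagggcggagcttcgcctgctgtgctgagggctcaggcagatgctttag
Hk2: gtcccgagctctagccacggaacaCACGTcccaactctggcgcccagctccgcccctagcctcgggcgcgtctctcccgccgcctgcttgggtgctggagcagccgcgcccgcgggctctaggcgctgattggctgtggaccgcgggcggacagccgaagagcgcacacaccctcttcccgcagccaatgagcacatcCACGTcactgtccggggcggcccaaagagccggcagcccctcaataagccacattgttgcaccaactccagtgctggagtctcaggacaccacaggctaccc
Pfkfb3: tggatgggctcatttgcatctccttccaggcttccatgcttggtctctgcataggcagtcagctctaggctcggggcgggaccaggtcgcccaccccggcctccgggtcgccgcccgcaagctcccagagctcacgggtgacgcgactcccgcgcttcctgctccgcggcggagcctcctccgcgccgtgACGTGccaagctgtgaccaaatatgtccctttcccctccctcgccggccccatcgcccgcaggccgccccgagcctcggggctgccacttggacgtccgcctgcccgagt
Slc16a3: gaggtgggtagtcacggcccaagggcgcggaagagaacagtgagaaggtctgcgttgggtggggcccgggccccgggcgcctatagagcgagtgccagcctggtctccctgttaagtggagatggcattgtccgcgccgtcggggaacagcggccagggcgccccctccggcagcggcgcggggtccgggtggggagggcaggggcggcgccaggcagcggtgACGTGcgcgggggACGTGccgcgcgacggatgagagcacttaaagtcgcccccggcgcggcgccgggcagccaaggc
Adm: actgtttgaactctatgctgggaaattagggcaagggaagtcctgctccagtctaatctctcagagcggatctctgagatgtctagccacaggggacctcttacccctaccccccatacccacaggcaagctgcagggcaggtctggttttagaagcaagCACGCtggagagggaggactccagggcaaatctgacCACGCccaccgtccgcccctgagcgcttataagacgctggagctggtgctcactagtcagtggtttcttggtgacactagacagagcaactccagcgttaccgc
Pfkfb4: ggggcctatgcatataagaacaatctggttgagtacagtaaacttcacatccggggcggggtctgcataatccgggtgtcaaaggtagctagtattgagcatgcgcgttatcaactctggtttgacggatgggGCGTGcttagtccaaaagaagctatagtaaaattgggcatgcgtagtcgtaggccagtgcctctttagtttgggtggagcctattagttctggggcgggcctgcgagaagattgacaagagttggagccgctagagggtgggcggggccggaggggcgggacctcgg
The ACGTG core stands 2 times in the Hk2 window, 2 times in that of Slc16a3 and 1 time in that of Pfkfb3. The GCGTG form stands 4 times in the Slc2a6 window, 2 times in that of Adm and 1 time in that of Pfkfb4. None of the 6 windows holds the full palindrome CACGTG. So the 5 genes that rose did not share 1 form of the core, and the gene that fell held it too.

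Of the 37 genes 34 matched a RefSeq promoter window; Slc2a3, Bnip3l and Ndrg1 did not. ACGTG was in at least 1 window of 24 of the 34, 70.6%, against 29.3% of the 9388 tested genes with a window and 21.8% of all 27025 genes. GCGTG was in 24 of the 34 as well, 70.6%, against 55.2% and 35.2%. Either form was in 32 of 34, 94.1%, against 66.8% and 46.7%: in 21 of 23 glycolytic genes and in 11 of 11 hypoxia genes. The windows of the 37 genes had a median GC content of 62.8%, against 60.3% for tested genes and 52.7% for all, and the core letters include a CG. Some genes have several windows. A match is a description of letters, not of HIF-1 binding.

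Glucose enters through transporters of the Slc2a family, and the make-up of that family changed with oxLDL. Slc2a6, a lysosomal member of the family (chr2:27021363-27027998, minus strand, GRCm38), read 60.5, 37.5 and 73.1 TPM in WT PBS against 603, 874 and 1124 TPM in WT oxLDL. Pim1-/- macrophages read 16.4, 35.6 and 39.9 TPM without and 833, 524 and 650.0 TPM with oxLDL. All 6 oxLDL libraries stood far above all 6 PBS libraries. The log2 change was 3.91 ± 0.43 (SE) in WT, a 15.0-fold rise (adjusted p = 2.53e-05), and 4.47 ± 0.43 in Pim1-/-, a 22.2-fold rise (adjusted p = 1.03e-05). Both calls were kept on both scales and without any 1 library. After scaling the changes were 4.91 in WT and 5.13 in Pim1-/-. Here and below, changes are differences of mean log2(TPM + 1) with the SE of the model, and folds are taken on that scale.

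Slc2a3, a high-affinity glucose transporter (chr6:122727809-122801640, minus strand), went the other way from a low level. It read 4.09, 3.00 and 7.92 TPM in WT PBS against 0.160, 0.297 and 0.267 TPM in WT oxLDL. The Pim1-/- libraries read 1.36, 5.84 and 3.15 TPM in the PBS group against 0.325, 0.428 and 0.322 TPM in the oxLDL group. Every oxLDL library was below every PBS library. The change was -2.19 ± 0.43 in WT (adjusted p = 0.00220), called without any 1 library on both scales, and -1.58 ± 0.43 in Pim1-/- (adjusted p = 0.0290), where the pseudocount of 1 understates it, and -1.57 ± 0.37 and -1.30 ± 0.37 after scaling, also called. The Pim1-/- call was lost without Pim1-/- PBS 2 (adjusted p = 0.141), Pim1-/- PBS 3 (0.0530) or Pim1-/- oxLDL 1, 2 or 3 (0.0754, 0.0943 and 0.109). After scaling it was kept in 3 of 12 fits that each left out 1 library, those without WT PBS 2, WT PBS 3 or Pim1-/- PBS 1, and its adjusted p reached 0.164. Without Pim1-/- PBS 1 Pfkfb4 was called lower as well, which made 2 scaled falls.

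Slc2a1, the transporter for basal glucose uptake in most cells, read 193, 199 and 193 TPM in WT PBS against 156, 251 and 295 TPM in WT oxLDL, and these overlapped. Its Pim1-/- levels were 60.0, 178 and 153 TPM under PBS against 257, 211 and 250.5 TPM under oxLDL, with no overlap. Unscaled, the changes were 0.21 ± 0.43 (adjusted p = 0.725) and 1.01 ± 0.43 (adjusted p = 0.142). After scaling both were called, at 1.23 ± 0.35 (adjusted p = 0.0273) and 1.67 ± 0.35 (adjusted p = 0.00727). The scaled call in WT was lost without any 1 of the 3 WT PBS libraries or without WT oxLDL 2 or 3, with an adjusted p of up to 0.0879.

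Hexokinases trap glucose as its phosphate, and only 1 of the 3 rose on the unscaled scale. Hk2, the inducible form (chr6:82725025-82774454, minus strand), read 23.8, 31.7 and 19.2 TPM in WT PBS against 83.5, 55.6 and 82.9 TPM in WT oxLDL. In Pim1-/- it read 18.5, 25.7 and 22.1 TPM without and 49.7, 31.0 and 30.5 TPM with oxLDL. The treated libraries lay above the PBS libraries in both genotypes, and the Pim1-/- oxLDL libraries lay below the WT oxLDL ones. The change was 1.54 ± 0.37 in WT (adjusted p = 0.00673), called without any 1 library, and 0.70 ± 0.37 in Pim1-/- (adjusted p = 0.231). After scaling it was 2.52 ± 0.31 and 1.34 ± 0.31, both called, the latter lost without Pim1-/- PBS 2 or Pim1-/- oxLDL 1 (adjusted p of up to 0.0532).

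Hk1, the form bound to mitochondria in most tissues, read 62.6, 67.7 and 43.0 TPM in WT PBS against 52.0, 80.1 and 91.6 TPM in WT oxLDL. It read 23.9, 59.1 and 54.4 TPM in Pim1-/- PBS against 78.9, 54.7 and 64.5 TPM in Pim1-/- oxLDL. The groups overlapped, and the unscaled changes of 0.35 ± 0.41 and 0.60 ± 0.41 were not called. Scaled, they were 1.35 ± 0.33 (adjusted p = 0.0120) and 1.25 ± 0.33 (adjusted p = 0.0255), both called. In Pim1-/- that call was lost without Pim1-/- PBS 1, Pim1-/- PBS 2 or any of the 3 Pim1-/- oxLDL libraries (adjusted p of up to 0.0943). Hk3, the most abundant hexokinase here, ranged from 320.3 to 926 TPM over the 12 libraries and was called in neither genotype on either scale.

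At the phosphofructokinase step, the committed step of glycolysis, Pfkl and Pfkp overlapped between PBS and oxLDL, and Pfkm and the regulators did not. Pfkl, the liver-type subunit, read 126, 135 and 73.8 TPM in WT PBS against 72.3, 139 and 183 TPM in WT oxLDL. It read 45.3, 116 and 90.1 TPM in Pim1-/- PBS against 136, 116 and 125 TPM in Pim1-/- oxLDL. PBS and oxLDL overlapped in both genotypes, as they did for Pfkp. For Pfkm, the muscle-type subunit, 9.40, 11.0 and 6.53 TPM in WT PBS stood against 4.68, 2.55 and 4.53 TPM in WT oxLDL, and 3.69, 10.9 and 5.79 TPM in Pim1-/- PBS against 2.99, 3.61 and 2.59 TPM in Pim1-/- oxLDL. Its oxLDL libraries lay below the PBS libraries of each genotype, but the changes of -1.02 ± 0.42 and -0.84 ± 0.42 were not called (adjusted p = 0.0754 and 0.212), and after scaling they were -0.15 ± 0.34 and -0.30 ± 0.34. Pfkp, the platelet-type subunit, read 84.7, 87.1 and 56.6 TPM in WT PBS against 47.2, 58.8 and 134 TPM in WT oxLDL. Its Pim1-/- levels were 35.1, 75.2 and 30.3 TPM under PBS against 52.6, 60.4 and 62.1 TPM under oxLDL. Neither Pfkl nor Pfkp was called on unscaled TPM, where the Pfkl changes were 0.18 ± 0.45 and 0.68 ± 0.45 and the Pfkp changes -0.05 ± 0.45 and 0.42 ± 0.45. Both were called after scaling, which turned the sign of Pfkp in WT, with Pfkl at 1.20 ± 0.34 and 1.33 ± 0.34 and Pfkp at 0.95 ± 0.31 and 1.07 ± 0.31. The scaled Pfkp calls stood near the threshold (adjusted p = 0.0499 and 0.0448) and were kept in 2 and 3 of 12 fits that each left out 1 library: in WT those without Pim1-/- PBS 2 or 3, and in Pim1-/- those without WT oxLDL 1 or 3 or Pim1-/- PBS 2, with an adjusted p of up to 0.150 and 0.170 in the others. Those of Pfkl were kept in 8 and 7 of 12, and in WT were lost without WT PBS 1 or 3 or WT oxLDL 2 or 3, and in Pim1-/- without Pim1-/- PBS 1 or 2 or any Pim1-/- oxLDL library.

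Pfkfb3 and Pfkfb4 make the fructose bisphosphate that activates phosphofructokinase, and they moved in opposite directions. Pfkfb3 (chr2:11471433-11554077, minus strand) read 53.2, 66.6 and 39.3 TPM in WT PBS against 560.3, 180.2 and 274 TPM in WT oxLDL. Pim1-/- macrophages read 28.5, 57.6 and 89.7 TPM in the PBS group against 174, 114 and 123 TPM in the oxLDL group. OxLDL libraries lay above PBS libraries in each genotype, and all 3 Pim1-/- oxLDL libraries lay below the lowest WT oxLDL library. In WT the rise of 2.52 ± 0.49, 5.74-fold, was called (adjusted p = 0.00198) on both scales and without any 1 library. After scaling the WT rise was 3.525. The Pim1-/- change was 1.33 ± 0.49 (adjusted p = 0.0940), not called, and 1.98 ± 0.52 after scaling (adjusted p = 0.0266), called. Unscaled it passed without Pim1-/- PBS 3 (adjusted p = 0.0426), and the scaled call was lost without Pim1-/- PBS 1 or 2 or any Pim1-/- oxLDL library (adjusted p of up to 0.0968).

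Pfkfb4 (chr9:108991778-109032228, plus strand) read 60.1, 58.7 and 28.3 TPM in WT PBS against 11.4, 8.66 and 18.7 TPM in WT oxLDL. The Pim1-/- libraries read 10.9, 32.6 and 21.2 TPM under PBS against 6.62, 5.83 and 5.06 TPM under oxLDL. The oxLDL libraries were below the PBS libraries in each genotype. Unscaled it fell, with a log2 change of -1.83 ± 0.46 in WT (adjusted p = 0.00910) and -1.61 ± 0.46 in Pim1-/- (adjusted p = 0.0368). After scaling the changes were -0.85 ± 0.36 and -1.02 ± 0.36, with neither called. The Pim1-/- call was lost without Pim1-/- PBS 2 (adjusted p = 0.159), Pim1-/- PBS 3 (0.0642) or Pim1-/- oxLDL 1, 2 or 3 (0.0689, 0.120 and 0.140).

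**Figure D3:**
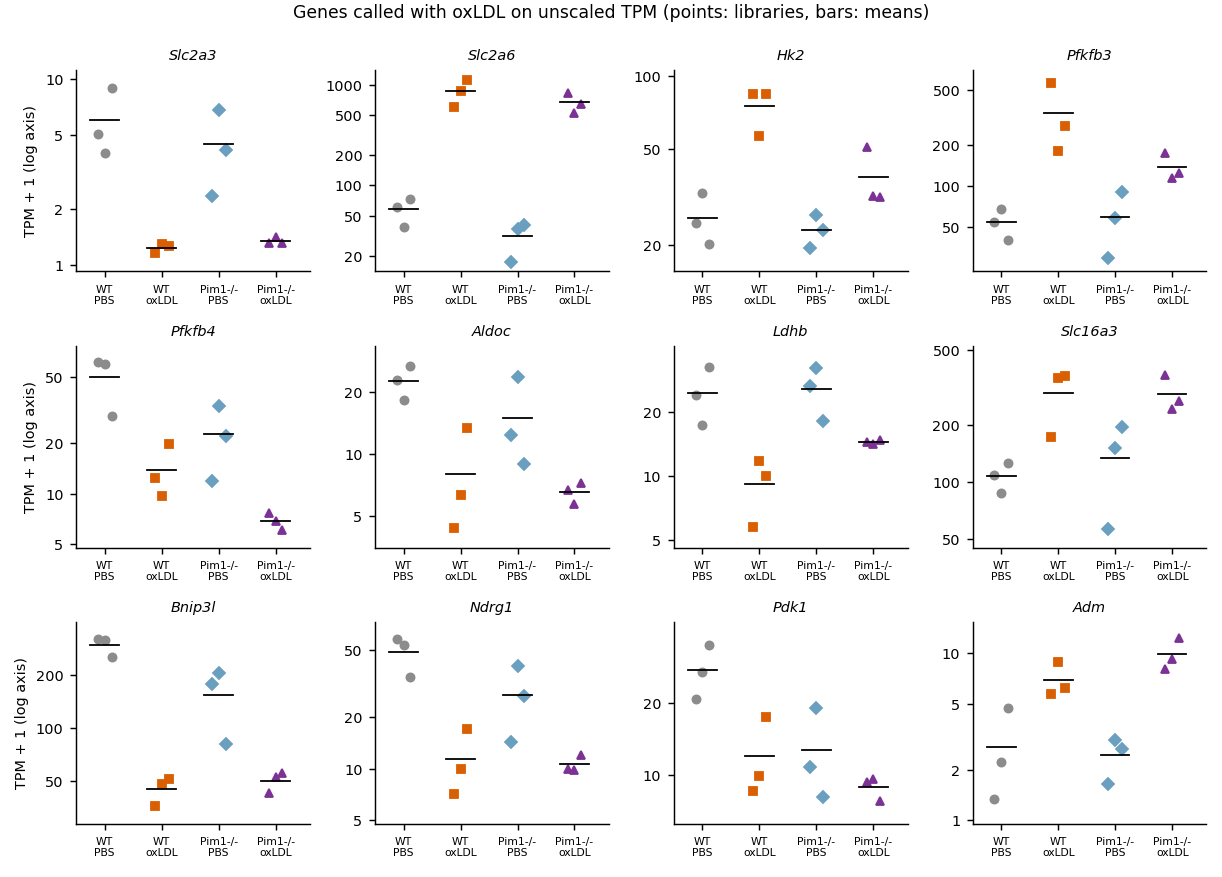
The 12 genes called with oxLDL on unscaled TPM in at least 1 genotype, as TPM + 1 on log axes by group. Points are libraries and bars are means of 3. In WT 5 genes rose (Slc2a6, Hk2, Pfkfb3, Slc16a3 and Adm) and the other 7 fell. Because the genes were chosen by this comparison, the gap between WT PBS and WT oxLDL in each adds no support.

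Aldolases split the hexose, and the minor form fell. Aldoc read 21.9, 17.3 and 25.9 TPM in WT PBS against 3.40, 5.32 and 12.5 TPM in WT oxLDL. It read 11.4, 22.8 and 8.02 TPM in Pim1-/- PBS against 5.68, 4.72 and 6.23 TPM in Pim1-/- oxLDL. PBS and oxLDL libraries did not overlap in either genotype. The change was -1.64 ± 0.48 in WT (adjusted p = 0.0182), called, and -1.09 ± 0.48 in Pim1-/- (adjusted p = 0.153), not called, and after scaling -0.71 ± 0.35 and -0.50 ± 0.35, with neither called. The WT call was lost without WT PBS 1 (adjusted p = 0.0505), WT oxLDL 1 (0.0833) or WT oxLDL 2 (0.0618). Aldoa, the main aldolase, ranged from 754 to 2024 TPM and was called in no contrast on either scale.

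From triose phosphate to pyruvate no gene of 6 was called on unscaled TPM, and 4 of 6 were called higher in WT after scaling. Gapdh, Pgk1, Aldoa, Pgam1 and Ldha each have 2 pseudogenes named after them in the GENCODE annotation, and Eno1 has a close relative in the table, Eno1b, so their reads may be split among copies and the values are uncertain. Tpi1, the triose phosphate isomerase, read 219.8, 157 and 280.3 TPM in WT PBS against 268, 441 and 384 TPM in WT oxLDL. It read 393, 459.6 and 411 TPM in Pim1-/- PBS against 481, 499.6 and 511 TPM in Pim1-/- oxLDL. WT PBS thus held the 2 lowest libraries, and all Pim1-/- libraries exceeded all WT PBS libraries. The oxLDL change was 0.74 ± 0.36 in WT (adjusted p = 0.128) and 0.24 ± 0.36 in Pim1-/- unscaled, and 1.76 ± 0.34 (adjusted p = 0.00290) and 0.90 ± 0.34 (adjusted p = 0.117) scaled.

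Gapdh, glyceraldehyde phosphate dehydrogenase, read 1089.7, 814 and 1954 TPM in WT PBS against 2047, 2309.7 and 1615 TPM in WT oxLDL. Its Pim1-/- levels were 1967, 1696 and 1963 TPM without and 2364, 2046 and 2424 TPM with oxLDL. The WT groups overlapped through WT PBS 3, and the Pim1-/- groups did not overlap. Its change was 0.71 ± 0.42 in WT and 0.28 ± 0.42 in Pim1-/- unscaled, and 1.74 ± 0.46 (adjusted p = 0.0199) and 0.94 ± 0.46 (adjusted p = 0.252) scaled, while quantile normalization put it at -0.17 in Pim1-/-. The scaled WT call was lost without WT PBS 1 or 2 or WT oxLDL 1 or 2 (adjusted p of up to 0.0836).

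Pgk1, phosphoglycerate kinase, read 314, 215 and 365 TPM in WT PBS against 391, 372 and 894 TPM in WT oxLDL. It read 328, 516 and 123 TPM in Pim1-/- PBS against 324, 402 and 385 TPM in Pim1-/- oxLDL. The WT oxLDL group was higher throughout, with WT oxLDL 3 far above the rest. Its change in WT was 0.80 ± 0.52 unscaled (adjusted p = 0.249) and 1.82 ± 0.43 scaled (adjusted p = 0.0103), and in Pim1-/- 0.42 ± 0.52 and 1.08 ± 0.43, with neither called.

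Eno1, the enolase, read 839, 572 and 721 TPM in WT PBS against 784, 879 and 1382 TPM in WT oxLDL. In Pim1-/- it read 538, 1220.5 and 877 TPM in the PBS group against 866, 902 and 904 TPM in the oxLDL group. These groups overlapped. The WT change was 0.49 ± 0.41 unscaled and 1.51 ± 0.33 scaled (adjusted p = 0.00722), and the scaled calls of Tpi1, Pgk1 and Eno1 in WT were kept without any 1 library. In Pim1-/- the Eno1 changes were 0.10 ± 0.41 and 0.76 ± 0.33, with neither called.

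Pkm makes pyruvate. It read 2336, 1991 and 2468 TPM in WT PBS against 794, 1385 and 2241 TPM in WT oxLDL. The Pim1-/- groups read 950.1, 2959 and 1931 TPM in PBS, then 1302, 1046 and 1171 TPM in oxLDL. WT oxLDL ran from the lowest of the 12 libraries to within the WT PBS range. The change was -0.74 ± 0.50 in WT and -0.59 ± 0.50 in Pim1-/- unscaled, and its sign flipped after scaling, to 0.28 ± 0.40 and 0.07 ± 0.40, with none called (adjusted p = 0.264 and 0.457 unscaled, 0.658 and 0.943 scaled). Pgam1, phosphoglycerate mutase, ranged from 626 to 1552 TPM and was not called.

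Lactate dehydrogenase turns pyruvate into lactate, with Ldha as the main subunit and Ldhb as the form of oxidative tissues. Ldha read 1214, 832 and 1667 TPM in WT PBS against 1121, 1282 and 2387 TPM in WT oxLDL. It read 1049, 2207 and 738 TPM in Pim1-/- PBS against 1229, 1640.2 and 1629 TPM in Pim1-/- oxLDL. The groups overlapped, and WT oxLDL 3 was the highest library. Its change was 0.34 ± 0.49 in WT and 0.31 ± 0.49 in Pim1-/- unscaled, 1.36 ± 0.41 (adjusted p = 0.0337) and 0.97 ± 0.41 (adjusted p = 0.170) scaled, and below 0 in both with quantile normalization (-0.09 in Pim1-/-). The scaled WT call was kept in 5 of 12 fits that each left out 1 library, and was lost without WT PBS 1 or 2, any WT oxLDL library, or Pim1-/- oxLDL 2 or 3.

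Ldhb read 22.8, 16.4 and 31.5 TPM in WT PBS against 4.74, 10.8 and 8.95 TPM in WT oxLDL. Pim1-/- macrophages read 25.3, 31.1 and 17.0 TPM under PBS against 13.4, 13.1 and 13.8 TPM under oxLDL. All oxLDL libraries were below all PBS libraries of the same genotype, and WT oxLDL was below Pim1-/- oxLDL. Unscaled it fell in WT, with a log2 change of -1.44 ± 0.40 (adjusted p = 0.0155), a call lost without WT oxLDL 1 (adjusted p = 0.0693). In Pim1-/- it changed by -0.78 ± 0.40 (adjusted p = 0.223), and the scaled values of -0.50 ± 0.34 and -0.16 ± 0.34 were not called.

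Slc16a3, the lactate exporter of glycolytic cells (chr11:120948480-120960868, plus strand), read 108, 85.9 and 126 TPM in WT PBS against 171, 356 and 362 TPM in WT oxLDL. The Pim1-/- libraries read 55.1, 151 and 194 TPM without and 369.5, 244 and 267 TPM with oxLDL. Treated libraries were higher than PBS libraries in both genotypes, without overlap. It rose by 1.41 ± 0.48 in WT, 2.65-fold (adjusted p = 0.0365), and changed by 1.29 ± 0.48 in Pim1-/- (adjusted p = 0.0963). After scaling both were called, at 2.42 ± 0.44 (adjusted p = 0.00211) and 1.95 ± 0.44 (adjusted p = 0.0112), and both scaled calls were kept without any 1 library. The unscaled WT call was lost without WT PBS 1 (adjusted p = 0.0827), WT PBS 2 (0.112), WT oxLDL 2 (0.113), WT oxLDL 3 (0.0854), Pim1-/- oxLDL 2 (0.0519) or Pim1-/- oxLDL 3 (0.0520). In Pim1-/- the unscaled change passed without Pim1-/- PBS 3 (adjusted p = 0.0439). Slc16a1, the other lactate transporter, ranged from 3.08 to 17.3 TPM and was not called, nor was the isomerase Gpi1 (115 to 360.5 TPM). The Gpi1 changes were -0.84 in WT and -0.43 in Pim1-/- unscaled, and their sign flipped to 0.18 and 0.22 after scaling.

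Of HIF-1 and its hydroxylases only Hif1a was called, and only after scaling. Hif1a, the alpha subunit, read 118, 120.0 and 67.0 TPM in WT PBS against 91.0, 130.1 and 273 TPM in WT oxLDL. It read 55.6, 88.0 and 36.5 TPM in Pim1-/- PBS against 115, 109 and 114 TPM in Pim1-/- oxLDL. The WT groups overlapped, with WT oxLDL 3 the highest library, and the Pim1-/- groups did not. Unscaled changes of 0.59 ± 0.46 (adjusted p = 0.339) and 0.99 ± 0.46 (adjusted p = 0.177) were not called. Scaled changes of 1.60 ± 0.32 (adjusted p = 0.00371) and 1.64 ± 0.32 (adjusted p = 0.00404) were called, in all 12 fits that left out 1 library. HIF-1 alpha is set largely by protein stability, which RNA does not show. The prolyl hydroxylases Egln1 (1.00 to 5.49 TPM) and Egln3 (0 to 8.95 TPM, at 0 in WT PBS 3) were low and not called.

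Bnip3 and Bnip3l are related mitophagy receptors and HIF-1 targets, and Bnip3l was the gene of the 37 with the largest unscaled fall in WT. Bnip3l (chr14:66985239-67008877, minus strand) read 315, 315 and 251 TPM in WT PBS against 35.0, 47.0 and 50.1 TPM in WT oxLDL. Its Pim1-/- levels were 175, 203 and 80.0 TPM in the PBS group against 42.0, 51.5 and 54.5 TPM in the oxLDL group. The 6 oxLDL libraries lay below the 6 PBS libraries, and Pim1-/- PBS lay between WT PBS and the oxLDL groups. In WT it fell, with a log2 change of -2.72 ± 0.39 unscaled, to a level 6.58-fold lower (adjusted p = 0.000232). Its scaled change in WT was -1.70, and it was called on both scales and without any 1 library. In Pim1-/- it fell, with a log2 change of -1.51 ± 0.39 unscaled (adjusted p = 0.0215) and changed by -0.86 ± 0.30 scaled (adjusted p = 0.0970), not called. The unscaled Pim1-/- call was lost without Pim1-/- PBS 1 (adjusted p = 0.0588), Pim1-/- PBS 2 (0.0887) or Pim1-/- oxLDL 1, 2 or 3 (0.0722, 0.0772 and 0.0687).

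Bnip3 read 42.8, 31.7 and 27.7 TPM in WT PBS against 62.8, 38.2 and 106 TPM in WT oxLDL. The Pim1-/- groups read 23.0, 42.7 and 13.0 TPM in PBS, then 30.0, 48.1 and 47.5 TPM in oxLDL. PBS and oxLDL overlapped in both genotypes. Its changes of 0.90 ± 0.48 in WT and 0.78 ± 0.48 in Pim1-/- were not called unscaled, and those of 1.89 ± 0.39 (adjusted p = 0.00465) and 1.42 ± 0.39 (adjusted p = 0.0319) were called scaled. The Pim1-/- call was lost without Pim1-/- PBS 1 or 3 or Pim1-/- oxLDL 2 or 3 (adjusted p of up to 0.140).

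Ndrg1, a stress-responsive gene induced by hypoxia (chr15:66929318-66969640, minus strand), read 56.9, 51.8 and 33.3 TPM in WT PBS against 6.04, 8.98 and 16.0 TPM in WT oxLDL. In Pim1-/- it read 13.3, 39.1 and 25.8 TPM under PBS against 8.99, 8.76 and 11.1 TPM under oxLDL. The oxLDL libraries lay below the PBS libraries of their genotype. It fell, with a log2 change of -2.15 ± 0.45 in WT (adjusted p = 0.00338), called without any 1 library, and -1.18 ± 0.34 after scaling (adjusted p = 0.0293), a call lost without WT PBS 1 or 2 or WT oxLDL 1 or 2. In Pim1-/- the changes were -1.24 ± 0.45 (adjusted p = 0.0934) and -0.62 ± 0.34 scaled, with neither called.

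Pyruvate dehydrogenase kinases keep pyruvate out of the mitochondria, and Pdk1 is the one best known as a HIF-1 target. Pdk1 read 19.8, 26.1 and 34.0 TPM in WT PBS against 7.52, 8.83 and 16.4 TPM in WT oxLDL. It read 9.73, 18.2 and 7.02 TPM in Pim1-/- PBS against 8.32, 8.57 and 6.77 TPM in Pim1-/- oxLDL. WT PBS stood above the other 3 groups without overlap. In WT it fell, with a log2 change of -1.25 ± 0.43 unscaled (adjusted p = 0.0374), while the scaled change was -0.29 ± 0.31 (adjusted p = 0.547). This was among the least firm of the calls: it was kept in 4 of 12 fits that left out 1 library, those without WT oxLDL 3 or any of the 3 Pim1-/- PBS libraries, and its adjusted p in the other 8 ran from 0.0507 without Pim1-/- oxLDL 1 to 0.131 without WT oxLDL 1. In Pim1-/- the change was -0.42 ± 0.43, and 0.19 ± 0.31 after scaling, with neither called and opposite signs. Pdk3 ranged from 8.02 to 34.7 TPM and was not called.

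Adm, which codes for adrenomedullin, a peptide that widens blood vessels (chr7:110627661-110629820, plus strand), rose from near the lower limit of the filter. It read 0.341, 1.23 and 3.67 TPM in WT PBS against 4.71, 7.83 and 5.18 TPM in WT oxLDL. Pim1-/- macrophages read 0.637, 2.02 and 1.66 TPM without and 7.08, 8.20 and 11.3 TPM with oxLDL. Each oxLDL library was above each PBS library. The rise was 1.49 ± 0.47 in WT (adjusted p = 0.0267) and 2.04 ± 0.47 in Pim1-/- (adjusted p = 0.0114), and it was called in both on both scales. After scaling it was 2.07 in WT and 2.60 in Pim1-/-. The unscaled WT call was lost without WT PBS 1 (adjusted p = 0.125), WT PBS 2 (0.0714) or WT oxLDL 2 (0.0978), and the Pim1-/- call without Pim1-/- oxLDL 3 (0.0687).

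P4ha1, a subunit of collagen prolyl hydroxylase, read 80.0, 87.2 and 41.5 TPM in WT PBS against 72.8, 93.0 and 189 TPM in WT oxLDL. The Pim1-/- groups read 42.9, 87.1 and 30.1 TPM in PBS, then 83.9, 77.9 and 97.7 TPM in oxLDL. Values overlapped within each genotype. It was not called unscaled, at 0.71 ± 0.48 and 0.82 ± 0.48, and was called scaled, at 1.71 ± 0.34 (adjusted p = 0.00348) and 1.47 ± 0.34 (adjusted p = 0.0119), the latter lost without Pim1-/- oxLDL 3 (adjusted p = 0.0665). Vegfa, the growth factor for blood vessels, ranged from 1.90 to 19.5 TPM with overlap in all groups, Ankrd37 from 0 to 12.7 TPM and the oxidase Ero1l from 12.0 to 83.7 TPM, and none of these 3 was called in any contrast.

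Set side by side, the glycolytic and the hypoxia genes were not cleanly apart. In each library the median deviation from each gene's mean was taken over the 24 and over the 13, and the difference of the medians ran from -0.39 to -0.01 in WT PBS and -0.05 to 0.26 in WT oxLDL. It ran from -0.26 to 0.67 in Pim1-/- PBS and from -0.09 to 0.45 in Pim1-/- oxLDL. All 3 WT PBS libraries were below 0, and the other groups held both signs. Of the 24 glycolytic genes 4 rose and 4 fell in WT unscaled, and of the 13 hypoxia genes 1 rose and 3 fell. Of all tested genes 5.83% were called higher and 27.0% lower. After scaling 13 and 1 glycolytic genes, and 4 and 2 hypoxia genes, were called higher and lower, with 13.1% and 7.47% of all tested genes.

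Shares of related genes within a library do not depend on how the libraries are scaled. A share is a gene's TPM over the summed TPM of its relatives among the 37 genes. It can move when a single gene of the set changes, so it does not by itself show a switch between paralogues. Relatives outside the 37, such as Pfkfb2 and Pdk2 given further below, are left out. The shares were chosen with earlier results of these data known, which the p-values do not take into account. The 9 shares were tested for oxLDL against PBS within genotype and for Pim1-/- against WT within treatment, 18 tests in all, by an exact two-sided permutation test over 400 arrangements, whose smallest p is 0.005. Differences below are means of the within-stratum differences, in percentage points, and p-values are adjusted over the 18.

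Slc2a1 made up 74.9, 83.1 and 70.4% of glucose transporter TPM in WT PBS against 20.6, 22.3 and 20.8% in WT oxLDL. In Pim1-/- it made up 77.1, 81.1 and 78.0% under PBS against 23.6, 28.7 and 27.8% under oxLDL. The share fell by 53.5 points with oxLDL (exact permutation test, adjusted p = 0.015), in all 12 libraries without overlap. The rest of the transporter TPM in oxLDL was nearly all Slc2a6, since Slc2a3 read at most 7.92 TPM. As given above, Slc2a1 itself was called lower in neither genotype on either scale. The lower share thus does not mean less Slc2a1.

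Pfkfb3 made up 47.0, 53.2 and 58.1% of Pfkfb3 and Pfkfb4 together in WT PBS against 98.0, 95.4 and 93.6% in WT oxLDL. The Pim1-/- shares were 72.4, 63.8 and 80.9% under PBS against 96.3, 95.1 and 96.1% under oxLDL. The 6 treated libraries were all above the 6 PBS libraries, and the share rose by 33.2 points (exact permutation test, adjusted p = 0.015). Pim1-/- PBS also lay above WT PBS, by 19.6 points, whereas the oxLDL groups differed by 0.162 points, and the Pim1-/- difference over both treatments was 9.88 points (exact permutation test, adjusted p = 0.0818).

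Bnip3 made up 12.0, 9.16 and 9.92% of Bnip3 and Bnip3l together in WT PBS against 64.2, 44.8 and 68.0% in WT oxLDL. In Pim1-/- its share was 11.6, 17.4 and 13.9% under PBS against 41.7, 48.3 and 46.6% under oxLDL. The rise of 39.9 points (exact permutation test, adjusted p = 0.015) was without overlap. A pair that was mostly Bnip3l in all PBS libraries thus held 41.7% to 68.0% Bnip3 in oxLDL.

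Slc16a3 was already 88.9% to 95.9% of the lactate transporters in PBS and 95.8% to 98.4% in oxLDL, and rose by 5.35 points (exact permutation test, adjusted p = 0.015). Ldhb fell from 1.39% to 2.35% of lactate dehydrogenase TPM in PBS to 0.374% to 1.08% in oxLDL, a drop of 1.21 points (exact permutation test, adjusted p = 0.015). Pdk1 fell by 16.2 points of Pdk1 and Pdk3 together (exact permutation test, adjusted p = 0.015), from 35.6% to 70.4% in PBS to 22.3% to 34.9% in oxLDL. Aldoc fell by 0.874 points of aldolase TPM (exact permutation test, adjusted p = 0.0257), with shares of 0.470% to 2.24% in PBS and 0.302% to 0.939% in oxLDL. Hk2 rose by 3.41 points of hexokinase TPM (exact permutation test, adjusted p = 0.0338): by 5.75 points in WT and 1.06 points in Pim1-/-, whose difference was not tested. That last test was lost without any 1 of the 3 WT PBS libraries, Pim1-/- PBS 2 or 3, or Pim1-/- oxLDL 1 (adjusted p of up to 0.080). The Pfkp share of phosphofructokinases differed by -2.89 points (exact permutation test, adjusted p = 0.424).

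No share passed for Pim1-/- against WT. The lowest adjusted p was 0.080, for Pdk1 at -10.2 points, followed by 0.081 for Aldoc at -0.601 points (exact permutation tests). Single libraries decide these tests. The Pdk1 share passed without WT PBS 1 (-12.8 points) or Pim1-/- oxLDL 1, and the Aldoc and Pfkfb3 shares passed without WT oxLDL 1. The Slc2a1 share passed without WT PBS 2 and the Ldhb share without Pim1-/- PBS 2, with adjusted p-values as low as 0.015 in the exact permutation tests.

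**Figure D4:**
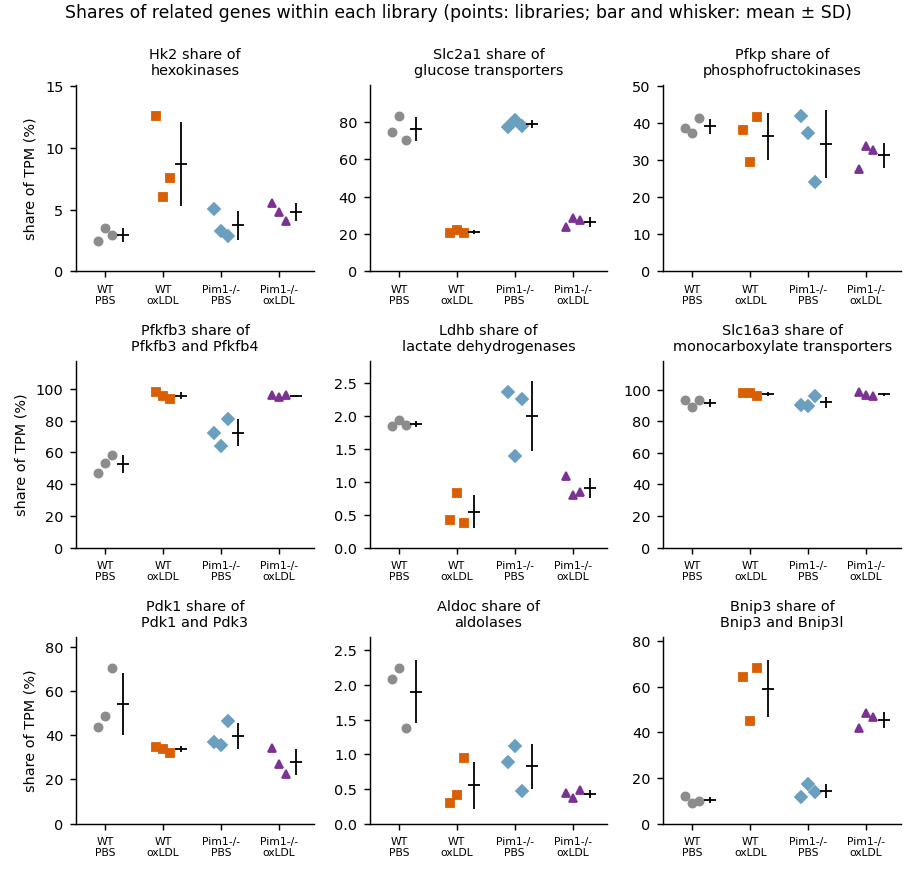
Shares of related genes within each library in percent of their summed TPM, by group, with points for libraries and a bar and whisker for the mean ± SD of 3. Shares of Slc2a1 fall from 70.4% to 83.1% in PBS to 20.6% to 28.7% in oxLDL in both genotypes, those of Pfkfb3 and Bnip3 rise, and those of Pfkp overlap.

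For the loss of Pim1 the 37 genes gave no call. In PBS 0 of 37 differed between Pim1-/- and WT on either scale, where 4.67% of all tested genes were called unscaled and 0.0397% scaled. At an unadjusted p under 0.05 (limma) there were 4 of 37 genes unscaled and 5 scaled, against 3546 and 2878 of the 12594 tested genes. In oxLDL 0 of 37 were called, with 0.00794% of tested genes on each scale. There 2 of 37 had an unadjusted p under 0.05 (limma) on each scale, against 1367 of the 12594 tested genes unscaled and 1465 scaled. The median difference in PBS was -0.37 over glycolytic genes and -0.50 over hypoxia genes unscaled, near the -0.41 of all tested genes. In oxLDL these medians were -0.15 and -0.33, against -0.16.

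In PBS the lowest unscaled adjusted p was 0.104, for Pdk1, and the lowest scaled one was that of Tpi1. As given above, its Pim1-/- PBS libraries were all above its WT PBS libraries, and the difference was 0.97 ± 0.36 unscaled (adjusted p = 0.110) and 1.58 ± 0.34 scaled (adjusted p = 0.0625). It passed after quantile normalization, at 1.22 (adjusted p = 0.0474), and after scaling without WT oxLDL 1, 2 or 3 or Pim1-/- PBS 2 (adjusted p = 0.0450, 0.0457, 0.0481 and 0.0482). Without Pim1-/- PBS 2, unscaled, Pdk1 (-1.54, adjusted p = 0.0422) and Pfkfb4 (-1.55, adjusted p = 0.0497) were called lower in Pim1-/- PBS. With all libraries these were -1.19 ± 0.43 and -1.20 ± 0.46 (adjusted p = 0.121), and -0.62 ± 0.31 and -0.60 ± 0.36 after scaling.

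In oxLDL the 2 genes with an unadjusted p under 0.05 unscaled were Hk2 and Pfkfb3, both lower in Pim1-/-. Their differences were -0.99 ± 0.37 (unadjusted p = 0.0167, adjusted p = 0.361) and -1.16 ± 0.49 (unadjusted p = 0.0322, adjusted p = 0.405, limma). All 3 Pim1-/- oxLDL libraries were below all 3 WT oxLDL libraries for both genes. After scaling the differences were -0.76 ± 0.31 and -0.92 ± 0.52, and the 2 genes under that threshold were Hk2 and Ldhb, with Pfkfb3 at an unadjusted p of 0.104 (limma). Ldhb was higher in Pim1-/-, at 0.97 ± 0.34 scaled (limma, unadjusted p = 0.0140, adjusted p = 0.391) and 0.72 ± 0.40 unscaled.

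The test of the difference between the oxLDL responses called 0 of 37 genes, with 0.00794% of all tested genes called on each scale. At an unadjusted p under 0.05 there was 1 gene on each scale, Bnip3l unscaled and Hk2 scaled. Of all 12594 tested genes, 381 unscaled and 364 scaled were under that threshold. For Hk2 the Pim1-/- response minus the WT response was -0.84 ± 0.52 unscaled and -1.18 ± 0.43 scaled (limma, unadjusted p = 0.126 and 0.0176, adjusted p = 0.986 and 1.000). For Pfkfb3 the difference of responses was -1.19 ± 0.69 and -1.54 ± 0.74, and for Bnip3l it was 1.20 ± 0.55 (limma, unadjusted p = 0.0467, adjusted p = 0.986) and 0.84 ± 0.43.

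Other genes of the HIF pathway and of carbohydrate metabolism were counted from lists. Of 13 regulators of HIF, 10 were tested, and 0 rose and 4 fell with oxLDL in WT unscaled, and 0 rose and 2 fell scaled. Of all tested genes 5.83% were called higher and 27.0% lower in WT unscaled, and 13.1% and 7.47% scaled. Epas1, which codes for HIF-2 alpha, fell, with a log2 change of -3.09 ± 0.38 (adjusted p = 6.2e-05), Arnt2 likewise, at -1.67 ± 0.35 (adjusted p = 0.00324) and Arnt, the partner of both alpha subunits, at -1.58 ± 0.41 (adjusted p = 0.0109), of which Epas1 and Arnt2 were also called scaled. Epas1 read 199, 221 and 191 TPM in WT PBS against 19.2, 20.3 and 31.0 TPM in WT oxLDL, with Hif1a above it in every oxLDL library and below it in every PBS library of both genotypes. The median over the 10 was -1.31, against -0.70 for all tested genes, and Epas1 alone was called in Pim1-/- (-3.22 ± 0.38). In Pim1-/- 7.8% of all tested genes were called lower unscaled.

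Among 20 further hypoxia targets 4 rose and 7 fell in WT unscaled, and 5 rose and 4 fell scaled. The shares of all tested genes were 5.83% and 27.0% unscaled, and 13.1% and 7.47% scaled. The adenylate kinase Ak4 rose by 3.22 ± 0.50 (adjusted p = 0.000428) and the lipid droplet gene Hilpda by 1.69 ± 0.40 (adjusted p = 0.00664). The chemokine receptor Cxcr4 fell, with a log2 change of -2.87 ± 0.41 (adjusted p = 0.000216), the transferrin receptor Tfrc too, at -3.73 ± 0.57 (adjusted p = 0.000373) and the repressor Bhlhe40, at -2.29 ± 0.43 (adjusted p = 0.00165). These 5 were also called in the same direction after scaling. In Pim1-/- 1 rose and 2 fell unscaled and 2 rose and 2 fell scaled. There the shares of all tested genes were 4.45% and 7.8% unscaled, and 7.68% and 4.03% scaled. For Pim1-/- against WT in PBS, 1 of the 20 was called higher on each scale and 0 lower. Of all tested genes 4.67% were called in either direction unscaled and 0.0397% scaled. The median difference of the 20 was 0.30 unscaled and 0.80 scaled, against -0.41 and 0.09 for all tested genes. An unadjusted p under 0.05 (limma) was found for 9 of the 20 unscaled and 12 scaled, against 3546 and 2878 of all 12594. In oxLDL 0 of the 20 were called on either scale.

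Of 34 genes of neighbouring carbohydrate metabolism 28 were tested, and 0 rose and 8 fell in WT unscaled, with 3 and 4 scaled. The falls unscaled were near the share of all tested genes, 27.0%, with 5.83% called higher. After scaling these shares were 13.1% higher and 7.47% lower. The glycogen phosphorylase Pygl fell, with a log2 change of -2.57 ± 0.50 (adjusted p = 0.00205), Pfkfb2, a further paralogue of Pfkfb3, at -2.40 ± 0.49 (adjusted p = 0.00284) and the pyruvate dehydrogenase kinase Pdk2 at -2.37 ± 0.50 (adjusted p = 0.00341), and all 3 were also called lower scaled. In Pim1-/- 0 rose and 3 fell unscaled, and 1 rose and 2 fell scaled, where all tested genes had 4.45% and 7.8%, and 7.68% and 4.03%. The median over the 28 in WT was -0.77 unscaled and 0.06 scaled, against -0.70 and 0.12 for all tested genes.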

How the data were processed

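The authors deposited 1 table of TPM per gene for 12 libraries, and these deposited TPM values sum to the same total in each library. How many reads stand behind a value is unknown, because TPM does not retain it, so no counting interval is given and no count model was used. The submitters' processing notes name Salmon, DESeq2 and mm10, with no version or role, and the labels' protocols name total RNA and Illumina library preparation. The annotation behind the table is not given in the sources used here.

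Samples were grouped by their titles. Values were analysed as log2(TPM + 1), which understates changes of low genes, for the 12594 genes that reached a TPM of 1 in 3 or more libraries. limma 3.58.1 (R 4.3.3) fitted 4 group means over all 12 libraries, with an intensity trend, and p-values were adjusted over all genes tested (Benjamini-Hochberg, 0.05). The same fit was run after median-of-ratios scaling. Shares were computed with numpy 2.4.6 and pandas 2.3.3. Both the fit and the share test were tested on simulated data. Positions come from GENCODE on GRCm38 and promoters from RefSeq.

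The 37 genes, the other lists and the shares were chosen with earlier results of these data known. Values in each library are given for genes called in a pairwise contrast on either scale with a log2 change of at least 1, and for Hif1a, Gapdh, Ldha and Pkm. The other genes are given by range, and up to 3 called genes per pathway list and direction are named by p. Some genes of these lists are counted but not reported here by name. Alternatives tried were other scalings, pseudocounts of 0.1 and 5, filters, no trend, fits of fewer groups, a replicate block and leaving out libraries.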

Additional observations from a re-analysis of the deposited data

How the results depend on the processing

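Beside the fits that each left out 1 library, other settings kept the direction and the side of the threshold of 399 gene-level results, weakened 33, strengthened 23 and reversed 5. Leaving out 1 library kept 462, weakened 37, strengthened 2 and reversed 3. These cover, by contrast, genes called with a log2 change of at least 1 and Hif1a, Gapdh, Ldha and Pkm. Over all 37 genes median scaling lowered the number of changes below 0 from 17 to 8 in WT and from 18 to 9 in Pim1-/-. In the values below the cause was not tested. In WT the rises numbered 17 with median scaling. Unscaled they numbered 3 with no filter and 3 without the similar pair WT oxLDL 2 and Pim1-/- oxLDL 1. The scaled rises were 11 without the similar pair, and the falls 3 with median scaling, 3 with quantile normalization, 4 with only the groups compared and 4 without the similar pair. In Pim1-/- the rises were 12 with median scaling, and the scaled rises 6 without the similar pair. The Pim1-/- falls were 1 with median scaling, quantile normalization, a pseudocount of 5 or no filter, and 0 without the similar pair, as were the scaled falls there. Quantile normalization gave 1 gene higher in Pim1-/- PBS. Among the genes covered, signs reversed for Pkm with median scaling (0.28 in WT, 0.070 in Pim1-/-) and with quantile normalization for Ldha (-0.0013 in WT, -0.089 in Pim1-/-) and Gapdh (-0.17 in Pim1-/-). The scaled fits without the pair and with the block were chosen after seeing the data.

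Across fits that each left out 1 library, the WT counts ran from 3 to 5 rises and 4 to 8 falls. The Pim1-/- counts ran from 1 to 4 rises and 0 to 3 falls unscaled, and from 6 to 12 and 0 to 2 scaled. Genes higher in Pim1-/- PBS numbered 0 to 1 scaled, and genes lower 0 to 2 unscaled. The change ran from -0.10 to 0.56 for Pfkl in WT and from -0.033 to 0.76 for Ldha in Pim1-/-. Of the shares, in points, Hk2 with oxLDL ran from 2.45 to 4.08. For Pim1-/- against WT the shares ran from 2.61 to 5.78 (Slc2a1), 7.75 to 12.0 (Pfkfb3), 0.154 to 0.395 (Ldhb), -1.10 to 0.459 (Slc16a3), -12.8 to -6.15 (Pdk1) and -0.730 to -0.504 (Aldoc).

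Replicate numbers did not pair the libraries: of 18 same-numbered pairs 5 had a correlation of deviations over 0.1 (range -0.521 to 0.165). Among pairs with different numbers, WT oxLDL 3 and Pim1-/- PBS 2 had the highest correlation, 0.724. WT oxLDL 2 and Pim1-/- PBS 3 had 0.411. WT oxLDL 3 and Pim1-/- PBS 2 also had the highest median deviations of the glycolytic genes, 0.637 and 0.544. What these libraries share was not tested. With the replicate block the Pdk1 fall in WT (adjusted p = 0.0606) and the Pfkfb4 fall in Pim1-/- (adjusted p = 0.0689) were not called, and the scaled falls in Pim1-/- were 0. Scaled rises with the block were 15 in WT, against 17, and 8 in Pim1-/-, against 12. For shares the block was an exact sign-flip test over 6 pairs, too few to pass after adjustment unless most of the 18 tests did: Hk2 3.41, Slc2a1 -53.5, Pfkfb3 33.2, Ldhb -1.21, Slc16a3 5.35, Pdk1 -16.2 and Bnip3 39.9 points had an adjusted p of 0.0703 and Aldoc, at -0.874 points, 0.112. Without the similar pair the exact permutation test gave an adjusted p of 0.0667 for Hk2 (3.90), Slc16a3 (4.81), Pdk1 (-17.9) and Aldoc (-0.840). TPM keeps no depth, so how far counting error limits low genes such as Adm and Slc2a3 is unknown.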
